A study of Rattus norvegicus with 16 samples.

Results

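The collagen chain genes were taken as every gene whose rat symbol has the form Col, a number, a and a number. RefSeq's gene table of the GRCr8 assembly holds 44 such genes, the accessions printed on the array named 18 of them, and 17 were kept because their brightest probe gave a signal well above background on 4 or more of 16 arrays. The 17 are 7 fibrillar collagens (Col1a1, Col1a2, Col2a1, Col3a1, Col5a1, Col5a3 and Col11a2), 3 basement membrane collagens (Col4a1, Col4a4 and Col18a1) and 7 minor collagens (Col6a2, Col7a1, Col8a1, Col9a1, Col9a2, Col14a1 and Col23a1). They stand among 11885 named genes and 22414 probes that passed the same filter. Several chains known in adipose tissue, among them Col4a2, Col5a2, Col6a1, Col6a3 and Col15a1, were not analysed here.

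The arrays measured RNA from epididymal white adipose tissue, the fat pad along the epididymis, of 16 male rats killed at 30 days of age without fasting. The dams of both groups were kept on a high-fat diet while pregnant and nursing, litters were set to 10 pups per dam, and the pups were weaned on day 21 of lactation and then ate their mother's diet. In the HF group (8 pups) the dams took the vehicle, low-fat condensed milk. In the HFT group (8 pups) the dams took 25 mg per kg body weight of GSPE, a grape seed procyanidin extract, in the same milk every day. No group without the high-fat diet was part of the arrays, and the labels give the extract as a treatment of the dams. The labels used here do not say which pups shared a dam, so p-values measure the spread between these animals, some of which may be littermates. Animals are named by group and label number (HF 8, HFT 22).

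Collagens are secreted proteins whose chains wind into helical trimers. Fibrillar collagens build the rope-like fibrils of connective tissue, collagen IV builds the basement membrane sheet around each fat cell and blood vessel, and the minor collagens coat fibrils, form filaments or span cell membranes. In fat, fibroblast-lineage cells are known as the main source of fibrillar collagen, while fat cells and endothelial cells make basement membrane chains. Trimers of collagen I hold the chains of Col1a1 and Col1a2, and these genes are known to be transcribed together.

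The RefSeq promoter table (GRCr8) matched 12 of the 17 genes; it held no entry for Col1a1, Col2a1, Col3a1, Col6a2 or Col14a1. The 250 bases before the annotated start are printed for the 4 matched genes on which the account of co-variation turns: Col1a2, whose level followed that of its partner chain, Col4a1, and the collagen V chains Col5a1 and Col5a3. They lie at chr4:33518307-33518556 (+ strand), chr16:84885347-84885596 (+ strand), chr3:31606630-31606879 (+ strand) and chr8:27625949-27626198 (- strand), and are written 5′ to 3′ along the gene. Capitals mark 3 motifs searched on both strands, the CCAAT box, the TATA motif TATAAA and the GC-rich motif GGGCGG. Where capitals spell ATTGG or CCGCCC, the CCAAT box or the GC-rich motif lies on the other strand.
Col1a2: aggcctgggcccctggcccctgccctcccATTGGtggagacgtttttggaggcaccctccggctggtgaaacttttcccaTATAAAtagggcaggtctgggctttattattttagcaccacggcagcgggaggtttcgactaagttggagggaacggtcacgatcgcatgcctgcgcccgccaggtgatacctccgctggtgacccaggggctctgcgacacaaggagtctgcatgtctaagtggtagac
Col4a1: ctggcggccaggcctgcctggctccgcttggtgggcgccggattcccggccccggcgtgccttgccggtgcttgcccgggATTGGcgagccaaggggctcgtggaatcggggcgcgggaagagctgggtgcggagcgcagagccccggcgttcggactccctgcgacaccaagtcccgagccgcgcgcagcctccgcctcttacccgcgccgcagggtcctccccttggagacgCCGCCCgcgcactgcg
Col5a1: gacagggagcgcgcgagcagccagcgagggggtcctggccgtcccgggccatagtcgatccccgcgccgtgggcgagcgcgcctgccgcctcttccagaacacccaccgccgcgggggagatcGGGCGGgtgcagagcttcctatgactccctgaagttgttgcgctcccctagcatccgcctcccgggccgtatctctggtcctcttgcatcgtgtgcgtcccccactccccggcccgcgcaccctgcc
Col5a3: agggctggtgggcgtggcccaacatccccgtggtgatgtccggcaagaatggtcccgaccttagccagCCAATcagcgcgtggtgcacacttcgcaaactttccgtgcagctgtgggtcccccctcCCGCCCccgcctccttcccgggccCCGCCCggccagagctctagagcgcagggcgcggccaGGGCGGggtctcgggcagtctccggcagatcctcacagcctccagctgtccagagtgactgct
Of the 12 matched windows, 3 held CCAAT (Col1a2, Col4a1 and Col5a3), 1 held TATAAA (Col1a2) and 8 held GGGCGG. Over 33469 promoter windows of the same length the shares with a match were 34.0%, 12.9% and 30.5%. The match nearest to the start began 170 bases before it for TATAAA of Col1a2 and 170 bases before it for CCAAT of Col4a1. The Col4a1 window also contains the start of Col4a2, which runs on the opposite strand and begins 77 bases away. A match is a description of these letters and was not tested for binding.

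Levels are log2 of the array's processed signal minus the 75th percentile of that array, so 0 is the signal of the spot at that percentile and 1 unit is a 2-fold difference in signal. Signals of different probes are not on 1 scale, and levels are compared only across animals for the same gene. The 75th percentile ran from 753 to 1366 signal units over the arrays, and 68.3% to 73.5% of probes were well above background. The fat cell genes Adipoq, Fabp4, Cidec and Lpl were well above background on all 16 arrays. Markers of epithelium set 7 arrays apart. The mean of 10 general epithelium genes (10 of 10 measured), relative to the median array, lay between 2.60 and 4.46 on HF 8, HF 9, HF 35, HFT 22, HFT 23, HFT 24 and HFT 28, and between -1.43 and 0.32 on the other 9. Of the 7, HF 35, HFT 22 and HFT 24 carried urothelium genes (10 of 14 measured, scores 4.62 to 5.77), with Upk3a, a plaque protein of the bladder lining, at 4.69, 2.95 and 4.69 against at most -5.98 on the other 13. HF 8, HFT 23 and HFT 28 carried epididymal genes (10 of 20 measured, scores 2.32 to 3.32), with Lcn5, an epididymal lipocalin, at 4.12, 3.42 and 4.12 against at most -2.71 elsewhere. HF 9 carried smooth muscle genes (14 of 15 measured, score 3.05, against at most 1.19 elsewhere). It also had a skeletal muscle score of 2.71 (6 of 8 measured), against at most 0.84 elsewhere. Its epididymal score was 1.81, under the 3 epididymal arrays but above the next array, HFT 24 (0.71), while its Lcn5 was at -4.98. The 7 are 3 HF and 4 HFT arrays, and results are given with and without them. In bulk tissue, fewer cells of a type and less RNA per cell cannot be told apart.

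**Figure D1:**
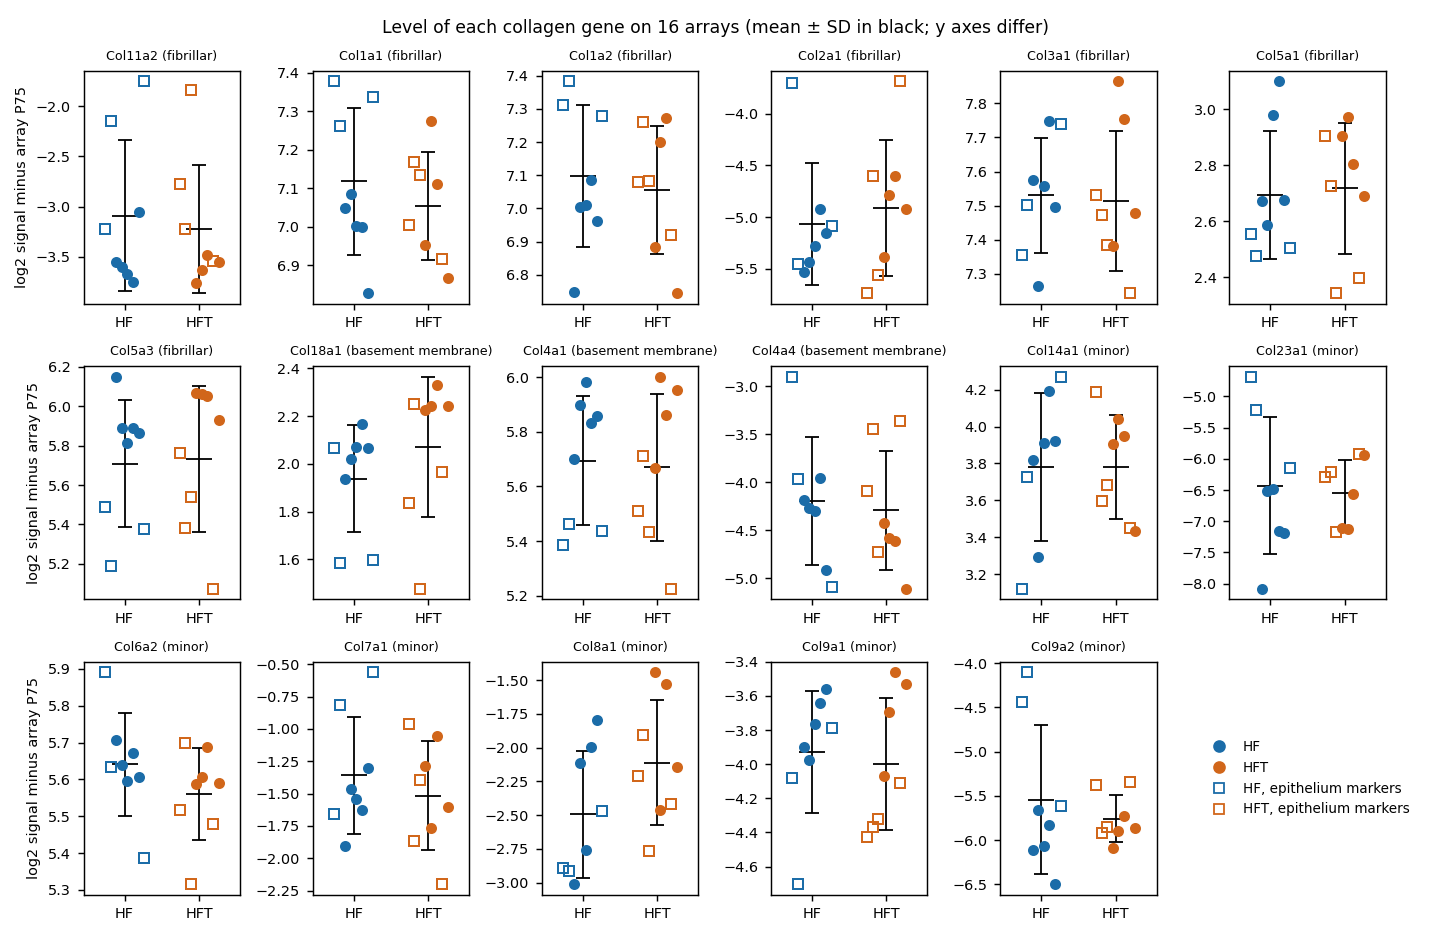
Level of each of the 17 collagen genes (log2 signal minus the array's 75th percentile, y axes differ) in 8 HF and 8 HFT animals, with mean and SD in black; open squares are the 7 arrays with epithelium markers. The groups overlap in every panel, and for Col5a3 all 7 squares lie below every filled circle.

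The fibrillar genes of collagens I and III varied little between animals and overlapped between groups. Col1a1, which encodes the chain present in double copy in collagen I, ran from 6.83 to 7.38 in HF animals (median 7.07) and from 6.87 to 7.27 in HFT animals (median 7.06). Its partner chain Col1a2 ran from 6.75 to 7.38 in HF (median 7.05) and from 6.74 to 7.27 in HFT (median 7.08). Col3a1, which forms mixed fibrils with collagen I, ran from 7.27 to 7.75 in HF (median 7.53) and from 7.24 to 7.86 in HFT (median 7.47). The SD over all 16 animals was 0.165 for Col1a1, 0.197 for Col1a2 and 0.181 for Col3a1, below the median of 0.258 over all 11885 genes. For Col1a1 the highest animals were HF 8 (7.38), HF 35 (7.34) and HFT 26 (7.27), and the lowest was HF 14 (6.83).

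The collagen V genes, which regulate the start and width of fibrils, were lower on the arrays with epithelium markers. Col5a1 ran from 2.48 to 3.1 in HF (median 2.63) and from 2.34 to 2.97 in HFT (median 2.77), and 5 of the 7 arrays with epithelium markers lay below the lowest of the other 9. Col5a3 ran from 5.19 to 6.15 in HF (median 5.84) and from 5.07 to 6.07 in HFT (median 5.85). On all 7 arrays with epithelium markers Col5a3 was between 5.07 and 5.76, under the 5.81 to 6.15 of the other 9. The part of the other tissue's RNA in these lower levels was not tested. The share of all probes that set the same arrays apart is not given. Such counts, here and below, are therefore not read as particular to collagens.

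The fibrillar chains best known from cartilage, Col2a1 and Col11a2, were near the low end of their arrays' signal but well above background in all 16 animals. Col2a1 ran from -5.53 to -3.70 in HF (median -5.22) and from -5.74 to -3.68 in HFT (median -4.86), with its highest values on HFT 28 (-3.68) and HF 8 (-3.70), arrays with epididymal genes. Col11a2 ran from -3.75 to -1.75 in HF (median -3.39) and from -3.76 to -1.84 in HFT (median -3.51). Its 4 highest values came from HF 35 (-1.75), HFT 24 (-1.84), HF 9 (-2.14) and HFT 22 (-2.78), the urothelium and smooth muscle arrays, against at most -3.05 on the 9 without epithelium markers. Both genes had a wide spread, with an SD over 16 animals of 0.610 for Col2a1 and 0.676 for Col11a2.

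Of the basement membrane genes, Col4a1, a chain of the collagen IV network found in nearly every tissue, ran from 5.39 to 5.98 in HF (median 5.77) and from 5.23 to 6.0 in HFT (median 5.69). It was below the lowest of the 9 other arrays on 6 of the 7 with epithelium markers. Col18a1, whose released fragment is endostatin, ran from 1.58 to 2.16 in HF (median 2.04) and from 1.48 to 2.33 in HFT (median 2.23). Its 3 lowest animals were HFT 24 (1.48), HF 9 (1.58) and HF 35 (1.60), the animals that were among the highest for Col11a2. Col4a4, a chain best known from the kidney glomerulus, ran from -5.09 to -2.90 in HF (median -4.22) and from -5.11 to -3.36 in HFT (median -4.50). The epididymal arrays HF 8 (-2.90), HFT 28 (-3.36) and HFT 23 (-3.44) were its 3 highest, all above the -3.95 that was the highest of the 9 other arrays.

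Among the minor collagens, Col6a2, a chain of the beaded filaments around fat cells, had the smallest spread of the 17 genes. It ran from 5.39 to 5.89 in HF (median 5.64) and from 5.32 to 5.70 in HFT (median 5.59), with an SD of 0.134 over 16 animals and of 0.0459 over the 9 without epithelium markers. Col14a1, a fibril-associated collagen, ran from 3.12 to 4.27 in HF (median 3.86) and from 3.43 to 4.19 in HFT (median 3.80). Col8a1, a network collagen of vessel walls, ran from -3.01 to -1.79 in HF (median -2.61) and from -2.77 to -1.44 in HFT (median -2.18). For Col8a1 no array with epithelium markers lay outside the range of the other 9. Col7a1, the anchoring fibril collagen of epithelium, ran from -1.90 to -0.56 in HF (median -1.50) and from -2.20 to -0.96 in HFT (median -1.50), and was highest on HF 35 (-0.56), HF 9 (-0.81) and HFT 22 (-0.96).

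Collagen IX coats cartilage fibrils, and its genes Col9a1 and Col9a2 moved apart on the arrays with epithelium markers. Col9a1 ran from -4.70 to -3.56 in HF (median -3.84) and from -4.43 to -3.46 in HFT (median -4.09), and 6 of the 7 arrays lay below the lowest of the other 9. Col9a2 ran from -6.50 to -4.10 in HF (median -5.74) and from -6.09 to -5.35 in HFT (median -5.85), and 5 of the 7 lay above the highest of the other 9, led by HF 9 (-4.10) and HF 8 (-4.44). Col23a1, a collagen that spans the cell membrane, had the widest spread, from -8.08 to -4.68 in HF (median -6.50) and from -7.16 to -5.92 in HFT (median -6.43). HF 8 (-4.68) and HF 9 (-5.22) were again the highest.

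Col23a1 was also the gene nearest to the limit of the filter, well above background on 7 arrays (3 HF and 4 HFT), while the other 16 kept genes passed on all 16. Just outside, Col13a1, another membrane collagen, was well above background on 3 arrays, HF 8 (-3.94), HFT 28 (-5.0) and HF 9 (-5.52), against -8.95 to -7.12 on the other 13, and was left out. Of the 25 collagen probes on the array, several measured the same gene. The brighter and dimmer probe followed each other over the 16 animals with a Pearson r of 0.91 for Col11a2, 0.76 for Col14a1, 0.71 for Col23a1, 0.70 for Col4a1 and 0.45 for Col1a1. Col9a1 had probes at r = 0.40 and 0.17 with the one used, the latter above background on no array.

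No collagen gene passed the test of HFT against HF. By limma with Benjamini-Hochberg adjustment over all 22414 probes, 0 of the 17 genes passed an adjusted p of 0.05, and 0% of all probes did. At an unadjusted p under 0.05, 0 of 17 were higher in HFT, against 1.1% of all probes, and 0 of 17 were lower, against 1.22%. In 0 of 17 genes were the HF and HFT animals free of overlap, and 0% of all probes were.  The scan of all 30 alternatives gave a smallest adjusted p of 0.84 for any collagen gene.

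Over all 16 arrays Col8a1 had the largest difference, 0.38 log2 units higher in HFT (SE 0.222, 95% interval -0.089 to 0.85), or 1.30-fold. It was -2.49 ± 0.471 in HF and -2.11 ± 0.462 in HFT (mean ± SD, n = 8 each), 7 of 8 HFT animals were above the HF mean, and limma gave an unadjusted p of 0.105 and an adjusted p of 0.999994. Arrays came on 4 slides, each with both groups, and within slides 1 to 4 the Col8a1 difference was 0.84, 0.46, -0.064 and 0.29. Col18a1 was 1.94 ± 0.224 in HF and 2.07 ± 0.293 in HFT, a difference of 0.13 (SE 0.128, interval -0.139 to 0.405), with 6 of 8 HFT animals above the HF mean. Without the 7 arrays with epithelium markers the Col18a1 difference was 0.21 (limma, unadjusted p = 0.0171, adjusted p = 0.906). In that fit of 5 HF and 4 HFT arrays, Col18a1 was the 1 of 17 collagens higher at an unadjusted p under 0.05, against 2.52% of all probes; 0 were lower, against 2.64%; and 0 passed the adjusted threshold, against 0%.

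For the collagens that make up most fibrils and sheets the intervals were narrow. The HFT minus HF difference was -0.064 for Col1a1 (95% interval -0.25 to 0.122), -0.042 for Col1a2 (-0.26 to 0.176) and -0.016 for Col3a1 (-0.22 to 0.187). It was -0.024 for Col4a1 (-0.289 to 0.24) and -0.081 for Col6a2 (-0.236 to 0.075). Col5a1 and Col5a3 differed by 0.024 (SE 0.115) and 0.027 (SE 0.167). For the dimmer genes the intervals were wider: -0.22 for Col9a2 (-0.839 to 0.406), 0.16 for Col2a1 (-0.469 to 0.787), -0.16 for Col7a1 (-0.602 to 0.285), -0.13 for Col11a2 (-0.83 to 0.564) and -0.11 for Col23a1 (-0.969 to 0.752). Col4a4 (-0.095), Col9a1 (-0.072) and Col14a1 (-0.001) complete the 17. All these values are of the brightest probe. Dimmer probes that were well above background on all 16 arrays gave -0.064 for Col1a1 (SE 0.119) and -0.17 for Col4a1 (SE 0.154). They gave -0.23 for Col9a1 (SE 0.134, limma unadjusted p = 0.111), -0.11 for Col11a2 (SE 0.228) and -0.078 for Col14a1 (SE 0.193). These come from a fit without the filter on dim probes.

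**Figure D2:**
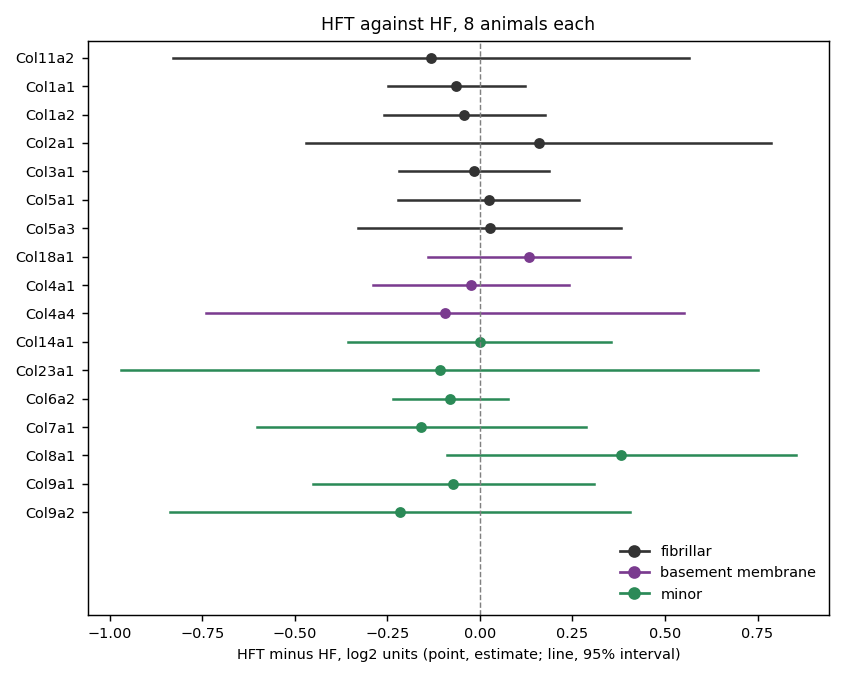
HFT minus HF for the 17 collagen genes in log2 units, with points for the estimate and lines for the 95% interval from the fit over all probes (8 animals a group), coloured by class. Every line crosses 0; Col8a1 lies farthest to the right at 0.38.

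By class the medians were -0.016 for the 7 fibrillar genes, -0.024 for the 3 basement membrane genes and -0.081 for the 7 minor genes, beside -0.015 over all probes and -0.0088 over all genes. Of the 17, 5 lay above 0 and 12 below, but after quantile normalization 10 lay above and 7 below, and in the log2 values the authors deposited 8 lay above and 9 below. After normexp background correction 5 lay above and 12 below. Among all probes 44.4% lay above 0 in the values used here, 47.5% after quantile normalization, 46.9% in the authors' deposited log2 values and 29.7% after normexp.

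The other genes of the collagen pathway gave the same count of calls, 0 past the adjusted threshold in each of 7 lists. In the list of chain modification and folding, 6 of 18 measured genes lay above 0 and 12 below (median -0.079). The smallest unadjusted p in it belonged to P3h4 (-0.13, SE 0.0757), P3h3 (-0.11, SE 0.0652) and P3h2 (-0.47, SE 0.365), members of the prolyl 3-hydroxylase family. In propeptide removal and cross-linking, 5 of 9 lay above 0 (median 0.028), and the leading genes were Pcolce, the enhancer of the propeptide-cutting enzyme (-0.18, SE 0.108), Tll2 (-0.24, SE 0.144) and Tll1 (-0.14, SE 0.0862), both tolloid-like proteinases. Among 22 fibril and matrix partners 14 lay above 0 (median 0.025). Biglycan, Bgn, a small proteoglycan that binds collagen fibrils, was 5.55 ± 0.251 in HF and 5.28 ± 0.192 in HFT, a difference of -0.26 (SE 0.112; limma, unadjusted p = 0.0317, adjusted p = 0.999994), and decorin, Dcn, differed by 0.21 (SE 0.129) and tenascin C, Tnc, by -0.33 (SE 0.202).

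Of 10 basement membrane partners 2 lay above 0 (median -0.086), led by the laminin chain Lamb2 (-0.13, SE 0.0832), the SPARC relative Sparcl1 (-0.24, SE 0.16) and the laminin chain Lama5 (-0.11, SE 0.134). Of 9 receptors 5 lay above 0 (median 0.011), led by Adgrg6 (-0.39, SE 0.251), the collagen-binding integrin chain Itga1 (-0.18, SE 0.163) and Adgrg1 (0.28, SE 0.298). In degradation and its inhibitors 7 of 15 lay above 0 (median -0.015), led by the collagenase gene Mmp1 (-0.60, SE 0.332), the inhibitor Timp2 (-0.13, SE 0.11) and the collagen-cutting cathepsin Ctsk (0.11, SE 0.0917). Mmp1 was well above background on only 6 of the 16 arrays. Of 18 regulators 4 lay above 0 (median -0.052). Pdgfb, a growth factor for pericytes and fibroblasts, was -3.91 ± 0.259 in HF and -4.21 ± 0.223 in HFT, a difference of -0.31 (SE 0.12; limma, unadjusted p = 0.0217, adjusted p = 0.999994), and Pdgfa differed by -0.17 (SE 0.0891) and Wwtr1 by -0.16 (SE 0.113).

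No gene of the 13 cell type marker lists passed the adjusted threshold, but several lists lay mostly on 1 side of 0, beside 44.4% of all probes above 0. All 14 macrophage genes lay above 0 (median 0.30), 5 of them at an unadjusted p under 0.05, against 1.1% of all probes, and the list score ran from -0.47 to 0.41 in HF and from -0.073 to 0.49 in HFT. All 13 measured endothelial genes lay below 0 (median -0.16), with scores of -0.25 to 0.32 in HF and -0.57 to 0.072 in HFT. So did 13 of 14 smooth muscle genes (median -0.51). Smooth muscle scores ran from -0.33 to 3.05 in HF and from -0.36 to 1.05 in HFT. The 3.05 is HF 9 alone, against at most 1.19 elsewhere, and the share of that array in the median was not tested. All 10 measured proliferation genes lay below 0 (median -0.25), with scores of -0.25 to 0.61 in HF and -1.02 (HFT 24) to 0.54 in HFT. All 5 mesothelium genes did too (median -0.28), with scores of -1.01 to 1.13 in HF and -1.61 to 0.94 in HFT. Of 10 general epithelium genes 9 lay above 0 (median 0.75), with scores of -1.29 to 4.06 in HF and -1.43 to 4.46 in HFT. The fibroblast list, which holds no collagen, had 13 of 17 above 0 (median 0.13). Their part in the collagen values was not tested.

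Across animals, collagen genes varied together in part, and the chains of collagen I followed each other. Col1a1 and Col1a2 had a Pearson r of 0.80 over 16 animals (permutation p = 0.0003, adjusted p = 0.0012 over 4 pairs of partner chains) and a Spearman rho of 0.82 (permutation p = 0.00021, adjusted 0.00084). Without the 2 animals farthest from the Col1a1 median, r was 0.75, and it was 0.76 within HF and 0.87 within HFT. It was 0.62 over the 9 arrays without epithelium markers (exact permutation p = 0.0719) and 0.89 over the 7 with them (exact permutation p = 0.00972). Col1a1 and Col3a1 had an r of 0.27 (permutation p = 0.316, adjusted 0.316) and a rho of 0.19 (permutation p = 0.469). Their r was -0.077 within HF and 0.66 within HFT, 0.53 over the 9 and 0.47 over the 7. The collagen I chains had a positive r in each set of arrays, and Col1a1 with Col3a1 passed the test in none. Col1a1 stands here and below for its brighter probe, which had an r of 0.45 with the dimmer one. No relations are given for the dimmer probe.

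For the other partner chains the relation changed with the set of arrays. Col5a1 and Col5a3 had an r of 0.65 over 16 animals (permutation p = 0.00627, adjusted 0.0125; rho 0.56, permutation p = 0.0252, adjusted 0.0504; 0.70 without the 2 farthest animals). Over the 9 arrays without epithelium markers their r was -0.082 (exact permutation p = 0.829), and over the 7 it was 0.61 (exact permutation p = 0.146). Col9a1 and Col9a2 had an r of -0.59 (permutation p = 0.0154, adjusted 0.0205; rho -0.44, permutation p = 0.0942, adjusted 0.126). That relation rested on the 2 animals farthest from the Col9a1 median, without which r was -0.29 (-0.35 without HF 9 alone, permutation p adjusted to 0.273), and over the 9 arrays it was 0.0087. For both pairs the 7 arrays with epithelium markers moved with the result. The Col9a1 probe used had an r of 0.40 with a second Col9a1 probe that was well above background on all 16 arrays.

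Over all 136 pairs of the 17 genes, 5 passed an adjusted p of 0.05 by r (2 by rho), and 0 passed over the 9 arrays without epithelium markers, where the smallest adjusted p was 0.308 by exact permutation. Col3a1 and Col14a1, a fibrillar collagen and a collagen that sits on fibrils, had a positive r in each set of arrays: it was 0.76 over 16 animals (permutation p = 0.00069, adjusted 0.0218; rho 0.81, permutation p = 0.00018, adjusted 0.0143) and 0.79 without the 2 farthest. It was 0.93 within HF and 0.61 within HFT, 0.74 over the 9 arrays (exact permutation p = 0.0205, adjusted 0.558) and 0.82 over the 7 (exact permutation p = 0.0282). HF 8 (Col14a1 at 3.12), HF 11 (3.29) and HFT 36 (3.43) were lowest for Col14a1.

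For the other 3 of the 5 pairs the values within the sets of arrays are given beside those over 16 animals, and the difference between sets was not tested. Col11a2 and Col18a1 had an r of -0.87 over 16 animals (permutation p = 0.00017, adjusted 0.0116), and -0.74 without the 2 farthest animals. Their rho was -0.61 (permutation p = 0.0148, adjusted 0.134). Their r was -0.90 over the 7 arrays with epithelium markers (exact permutation p = 0.0139) and -0.18 over the other 9 (exact permutation p = 0.686). The 7 are of mixed kinds, and HF 9 had a smooth muscle score of 3.05 and an epididymal score of 1.81. On the urothelium arrays and HF 9, Col11a2 was -2.78 to -1.75 and Col18a1 was 1.48 to 1.84. On the 3 epididymal arrays they were -3.54 to -3.22 and 1.97 to 2.25. The r over the 7 thus includes the difference between these kinds of array. Col23a1 and Col9a2 had an r of 0.81 over 16 animals (0.77 without the 2 farthest) and 0.86 over the 7. Col23a1 was well above background on 6 of these 7 arrays and on 1 of the other 9. It thus passed the filter mainly through the arrays where it was high. The r over 16 animals partly restates that split. No p is therefore given for this pair, although it is counted among the 5, and no r over the 9. Col5a3 and Col4a1 had an r of 0.76 over 16 animals (permutation p = 0.0008, adjusted 0.0218; rho 0.64, permutation p = 0.0092, adjusted 0.12; 0.64 without the 2 farthest), 0.40 over the 7 (exact permutation p = 0.366) and -0.54 over the 9 (exact permutation p = 0.142). As a description, the median r was 0.13 over the 136 collagen pairs and 0.019 over all gene pairs, and 17.6% of collagen pairs and 9.74% of all pairs had an r over 0.5. Over the 9 arrays these were 0.16 and 0.013, with 12.5% and 11.7% over 0.5.

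**Figure D3:**
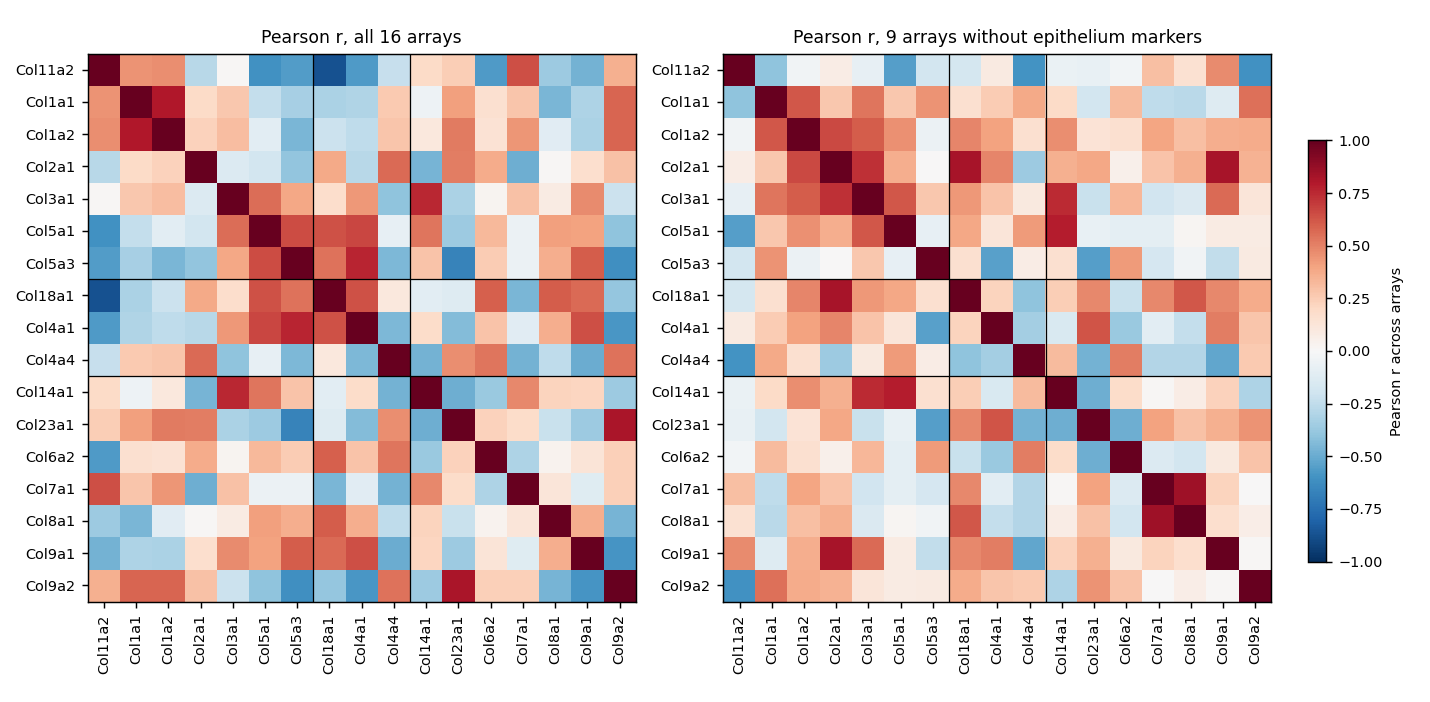
Pearson r between the 17 collagen genes across all 16 arrays (left) and across the 9 arrays without epithelium markers (right), with lines between fibrillar, basement membrane and minor genes. Col1a1 with Col1a2 (0.80 and 0.62) and Col3a1 with Col14a1 (0.76 and 0.74) are red on both sides, while Col11a2 with Col18a1 is blue on the left only.

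Marker lists were set against the collagens as scores, the mean of the list's measured genes, each minus its mean. Of 150 relations of 15 members with 10 lists, 17 passed by r over 16 animals (3 by rho) and 0 over the 9 arrays, where the smallest adjusted p was 0.119 by exact permutation. The 17 include the skeletal muscle score with Col11a2 (r = 0.77), Col9a2 (0.77), Col1a2 (0.64), Col18a1 (-0.71), Col9a1 (-0.68) and Col5a3 (-0.67). They also include the Schwann cell and nerve score with Col11a2 (0.83), Col7a1 (0.78) and Col18a1 (-0.70). Col11a2 with the skeletal muscle score also passed by rho (0.85, permutation p = 0.0001, adjusted 0.015). Over the 9 arrays that pair had an r of 0.31. Col5a1 had a positive r with the fibroblast score in each set of arrays: it was 0.84 over 16 animals (permutation p = 0.00012, adjusted 0.009 over 150 tests; rho 0.81, permutation p = 0.00035, adjusted 0.0262) and 0.76 without the 2 farthest. It was 0.91 within HF and 0.80 within HFT, 0.86 over the 9 arrays (exact permutation p = 0.00168, adjusted 0.126) and 0.78 over the 7 (exact permutation p = 0.0397). Col5a1 also followed the macrophage score (r = 0.69, permutation p = 0.00347, adjusted 0.0394; rho 0.72, permutation p = 0.00235, adjusted 0.0525; 0.70 without the 2 farthest; 0.78 over the 9 and 0.55 over the 7). Col11a2 with the smooth muscle score had an r of 0.69 over the 7 arrays (exact permutation p = 0.0546) and -0.27 over the 9 (exact permutation p = 0.364), and Col18a1 had -0.68 and -0.36 (exact permutation p = 0.0696 and 0.36). For Col1a1, r with the fibroblast score was -0.35 (permutation p = 0.181, adjusted 0.366 over 20 tests), with -0.60 over the 7 arrays and 0.068 over the 9. Col1a2 had an r of -0.055 over 16 animals, -0.49 over the 7 and 0.53 over the 9. In the same order Col3a1 had 0.53, -0.078 and 0.72, and Col14a1 had 0.59, 0.23 and 0.90. None of these passed, and Col14a1 over the 9 gave the smallest adjusted p of 0.119 by exact permutation.

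Col4a1 and Col5a3 were low on the arrays where fat cell genes were low. Col4a1 with the adipocyte score had an r of 0.91 over 16 animals (permutation p = 1e-05, the smallest these permutations can give, adjusted 0.0002 over 20 tests; rho 0.84, permutation p = 8e-05, adjusted 0.0016), 0.85 without the 2 farthest, 0.93 within HF and 0.89 within HFT. For Col5a3 it was 0.88 (permutation p = 3e-05, adjusted 0.0045 over 150 tests; rho 0.78, permutation p = 0.00059, adjusted 0.0295), 0.77 without the 2 farthest and 0.89 within each group. The adipocyte score (12 of 14 genes measured) ran from -0.66 to -0.11 on the 7 arrays with epithelium markers and from -0.0067 to 0.23 on the other 9, so the ranges do not overlap. Within these sets of arrays, r between Col4a1 and the adipocyte score was 0.76 over the 7 (exact permutation p = 0.0718) and 0.48 over the 9 (exact permutation p = 0.196). For Col5a3 it was 0.75 over the 7 (exact permutation p = 0.0508) and -0.24 over the 9 (exact permutation p = 0.519). HFT 28 was lowest for both genes and for the score (Col4a1 5.23, Col5a3 5.07, score -0.66).

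**Figure D4:**
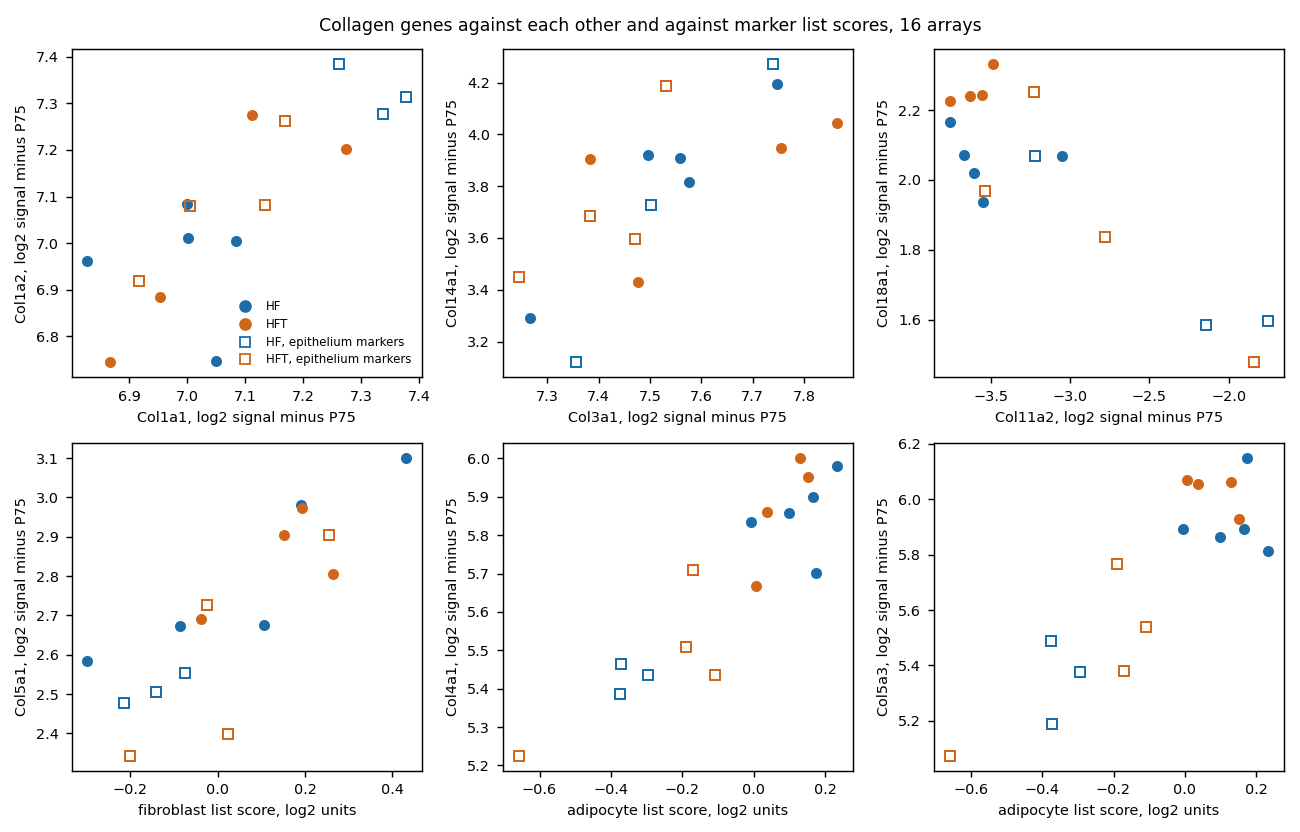
Collagen genes against each other (top) and against marker list scores (bottom), 1 symbol per animal; levels are log2 signal minus the array's 75th percentile, and open squares are the 7 arrays with epithelium markers. Col1a1 with Col1a2, Col3a1 with Col14a1 and Col5a1 with the fibroblast score rise in squares and circles alike, while in the adipocyte panels the squares lie to the left of the circles.

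Among 11868 genes that are not collagens, those most like Col1a1 over the 16 animals were Specc1 (r = 0.87, and 0.79 over the 9 arrays), Caap1 (0.84 and 0.80), Wipf2 (0.83 and 0.69), Lrrfip1 (0.81 and 0.70) and Mat2a (0.79 and 0.84), followed by Wdr37, Papola, Atxn3, Tmod2 and Mtf2 (0.78 to 0.79). The median r of all genes with Col1a1 was 0.019. None of the 10 is on the fibroblast list. That list holds only 17 of the genes tested, so its absence was likely for any 10 genes and nothing is drawn from it. Those most like Col4a1 were Aoc3, an amine oxidase of fat cells and smooth muscle (r = 0.95, and 0.84 over the 9 arrays), Kcnj8 (0.90 and 0.55), Sp100 (0.90 and 0.55), the fat cell hormone Adipoq (0.90 and 0.39) and Nid2, which links laminin to collagen IV in basement membranes (0.89 and 0.68). Lrrc4c, Pcdh19, Enpp2, Utrn and Cav2 followed at 0.87 to 0.89, with 0.062 for Pcdh19 and 0.17 for Utrn over the 9 arrays. The median r of all genes with Col4a1 was 0.16.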

How the data were processed

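The deposited spot intensity values come from Agilent Feature Extraction 10.7.3.1, background-subtracted and not normalized between arrays, per the file headers. A further table deposited by the authors holds log2 values (column medians 7.333 to 7.358, normalization not given in the sources used here), used only as an alternative. Of 62976 spots, 4259 controls and the spots marked as outliers were left out, log2 processed signal minus the array's 75th percentile was computed and spots of a probe were averaged; 23 probes without values were dropped and 0 spots were saturated. Probes well above background on 4 of 16 arrays were tested with limma 3.58.1 in R 4.3.3 with the data.table package (version 1.17.8), HFT minus HF, with Benjamini-Hochberg adjustment. Genes were named by RefSeq accession (17997 of 30344 probes); coordinates are of GRCr8 and none are given for probes. The brightest probe stands for a gene. Correlations used 100000 permutations, or exact ones for 9 animals or fewer. The scripts were tested on simulated data. Alternatives were normexp (offset 50), quantile normalization, the authors' table, slide as a block, array weights, other filters and probes, and leaving out arrays.

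Members and lists were chosen with earlier results of these data known. Named were all members by class, the 3 genes of smallest p in each pathway list and the 10 genes most like Col1a1 and Col4a1. The score limit of 3 for epididymal and urothelial arrays was planned; the limit of 2 that gives the 7 arrays with epithelium markers was chosen after seeing the data. The number of arrays limits the precision.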

Additional observations from a re-analysis of the deposited data

Results flagged for a closer look

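In 34 groups of 8 animals (17 genes, HF and HFT), 2 held an animal far from the others, and chance gives about 1 in 20. Col2a1 on HF 8 was -3.70 where the next HF animal was -4.92, a gap of 0.66 of the whole range. Col9a1 on HF 9 was -4.70 where the next was -4.08, a gap of 0.54 of the range. Both arrays carry epithelium markers (scores 4.06 and 2.95).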

How the results depend on the processing

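0 collagen genes passed the adjusted threshold under any of the 30 alternatives, 16 of which leave out 1 animal. At an unadjusted p under 0.05, the count higher in HFT was 0 as reported, 1 without the urothelial arrays (Col18a1, 0.22), 2 without the arrays high for the epididymal or urothelial list (Col18a1, 0.27, and Col8a1, 0.60) and 1 without the 7 epithelium arrays (Col18a1, 0.21); leaving out 1 animal gave 0 to 1 (Col8a1, 0.48 without HF 14 or without HFT 24). The class medians moved by over their spread for the fibrillar genes without arrays high for either list (0.090) and for the minor genes without the 7 arrays (0.14). No paired analysis was possible because HF and HFT animals share no replicate numbers; with slide as a block 0 of 17 genes passed the adjusted threshold (0% of all probes) and 0 passed an unadjusted p of 0.05 (1.52% of all probes higher and 1.78% lower).

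The sign of differences, none of them called, turned in these cases, up to a size of 0.40 for Col23a1, and the cause was not tested. With normexp Col2a1 was -0.017 and Col14a1 0.0044. With quantile normalization Col1a1 was 0.0030, Col1a2 0.015, Col3a1 0.0067, Col4a1 0.017 and Col14a1 0.028. In the authors' deposited log2 table Col1a2 was 0.00080, Col4a1 0.021 and Col14a1 0.025. With array weights Col1a1 was 0.0042, Col1a2 0.031, Col3a1 0.038, Col14a1 0.011 and Col23a1 0.12. Without the epididymal array HFT 28, Col2a1 was -0.016, Col3a1 0.022, Col4a1 0.039 and Col14a1 0.046. Without the urothelial arrays Col3a1 was 0.032, Col4a1 0.0045, Col14a1 0.017 and Col9a1 0.074. Without either, Col1a2 was 0.00069, Col3a1 0.090, Col4a1 0.11, Col14a1 0.073 and Col9a1 0.12. Without the 3 arrays of epididymal score over 2 Col3a1 was 0.011. Without the 7 epithelium arrays Col1a1 was 0.058, Col1a2 0.064, Col3a1 0.091, Col4a1 0.016, Col14a1 0.0045, Col7a1 0.14, Col9a1 0.078, Col9a2 0.14 and Col23a1 0.40, the last from a probe well above background on only 1 of these 9 arrays (HFT 36).

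Leaving out 1 animal at a time moved Col11a2 from -0.33 to 0.059, Col14a1 from -0.095 to 0.069, Col1a2 from -0.092 to 0.0020, Col23a1 from -0.34 to 0.14, Col2a1 from -0.016 to 0.35, Col3a1 from -0.067 to 0.022, Col4a1 from -0.072 to 0.039, Col4a4 from -0.23 to 0.090, Col5a1 from -0.012 to 0.082 and Col5a3 from -0.048 to 0.12.

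Of the 4 partner pairs, 3 passed the adjusted threshold as reported, 1 without arrays high for either list and 0 without the 7 epithelium arrays, where Col5a1 with Col5a3 was -0.082 and Col9a1 with Col9a2 0.0087; leaving out 1 animal gave 2 to 3 (2 without HF 9, where Col9a1 with Col9a2 was -0.35). Of the 20 relations of Col1a1 and Col4a1 with marker lists, 2 passed by r, Col4a1 with adipocyte and endothelial scores. By rho 3 passed, Col4a1 with the adipocyte score and Col1a1 with the smooth muscle and skeletal muscle scores. The last 2 had rho 0.68 and 0.70 (permutation p adjusted to 0.0327 for each), but r of 0.53 and 0.57 (permutation p adjusted to 0.118 and 0.0785). Col4a1 with the endothelial score did not pass by rho (0.51, permutation p adjusted to 0.181). The counts that follow are by r. The count was 6 with quantile normalization, 6 in the authors' table, 6 without HFT 28, 6 without the arrays of epididymal score over 2, 1 without the urothelial arrays, 1 without either and 0 without the 7 epithelium arrays; leaving out 1 animal gave 1 to 6 (1 without HF 9, HF 11, HF 12, HF 35 or HFT 24, each of which ends the call of Col4a1 with the endothelial score). Col1a1 with the endothelial score was -0.032 as reported, 0.16 without the urothelial arrays, 0.23 without the 7, 0.021 without the 2 farthest animals and -0.28 to 0.087 on leaving out 1 animal. Without the 7, Col1a1 with the adipocyte score was 0.073, Col1a1 with the fibroblast score 0.068 and Col4a1 with the smooth muscle score 0.34.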

Other observations

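Over the 9 arrays without epithelium markers, the collagen pairs of smallest p were Col7a1 with Col8a1 (r = 0.85, exact permutation p = 0.0045), Col5a1 with Col14a1 (r = 0.79, exact permutation p = 0.00619), Col2a1 with Col9a1 (r = 0.82, exact permutation p = 0.0085) and Col2a1 with Col18a1 (r = 0.82, exact permutation p = 0.00906). All 4 had an adjusted p of 0.308 over 136 pairs, so none passed. Over the 7 arrays with epithelium markers, r was -0.24 for Col7a1 with Col8a1, 0.35 for Col5a1 with Col14a1, 0.46 for Col2a1 with Col9a1 and 0.67 for Col2a1 with Col18a1. The signs of the last 3 were the same in both sets of arrays, and that of Col7a1 with Col8a1 was not.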
